A study of Mus musculus with 6 samples.

Results

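The genes described here are p53 itself (Trp53) and 31 of its known target genes in MLE-12 cells, a mouse lung epithelial line. They were taken by gene symbol from a list of p53 targets. All 32 symbols were found among the 34745 genes of the expression table, and 31 of them had enough reads to be tested. Gdf15 did not. MLE-12 cells were transfected with Lipofectamine 2000 and either the NR4A1 overexpression plasmid, which carries the open reading frame of this nuclear receptor in the pCMV-SPORT6 vector, or the empty pCMV-SPORT6 vector as control. RNA from 3 samples of each group was sequenced. Nothing in the labels says whether the 3 samples of a group were separate cultures, so p-values measure only the spread between these samples, which may be technical.

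p53 is a transcription factor that is held low by the ubiquitin ligase Mdm2 and accumulates after DNA damage and other stress. It binds DNA at a pair of short inverted motifs and induces genes for cell-cycle arrest, apoptosis, DNA repair and metabolism, together with its own inhibitors, among them Mdm2. MLE-12 was derived from lung tumours of mice that carry SV40 large T antigen under the human SFTPC promoter. Large T antigen binds p53 and blocks its binding to DNA, and it binds RB proteins as well. The cells of both groups derive from this line. p53 protein was not measured in the files used here.

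The overexpressed gene was read first. Nr4a1 had 50660, 60093 and 68555 counts in NR4A1 overexpression replicates 1, 2 and 3 and 428, 510 and 463 counts in vector controls 1, 2 and 3, so every library matched its label. The log2 fold change was 7.07 ± 0.14 (SE). Libraries held 15019038 to 17574340 counts each. A level of 3 counts, used as the detection floor, equals 0.171 to 0.200 CPM, where CPM stands for a gene's reads scaled to a common library size. NR4A1 replicate 2 stood apart. It held 350 genes at 10 or more times the level of every other library, against 0 to 10 genes in each of the others. Of the marker lists, 8 of 10 fibroblast genes, 10 of 11 endothelial genes and 7 of 7 smooth muscle genes were highest in this library. The summed level of the endothelial list was 141 CPM there against 14.9 to 18.1 CPM in the other 5 libraries, and 5 of its genes, with Cdh5 among them, had no read in the other 5. The smooth muscle list summed to 335 CPM against 3.11 to 5.21 CPM. The 9 fibroblast genes other than Dcn summed to 859 CPM in NR4A1 replicate 2 and 72.8 CPM in vector control 1, against 11.7 to 23.1 CPM in the other 4, while Dcn was high in all 6 libraries. Of the immune list, 4 of 6 genes were highest there, and it summed to 5.54 CPM against 2.08 to 3.40 CPM. The epithelial list (734 CPM against 624 to 841 CPM) and the alveolar type 2 list (323 CPM against 307 to 336 CPM) lay within the range of the other libraries. Krt8, Krt19, Cdh1, Sftpc, Nkx2-1 and Abca3 were present in all 6 libraries, whereas Epcam had at most 22 counts, Cldn4 at most 1 count and Sftpa1 no count in any library. Some genes of these 2 lists differed between the groups, in both directions. Cdh1 (26.2 to 31.1 CPM against 34.3 to 35.7 CPM), Krt8 (187 to 209 CPM against 213 to 226 CPM) and Nkx2-1 (59.8 to 74.6 CPM against 80.5 to 86.2 CPM) lay below the controls in every NR4A1 library, with log2 fold changes of -0.27 ± 0.089, -0.12 ± 0.074 and -0.32 ± 0.10. With Sftpb, 2 of 6 tested genes of each list were placed that way, against 6.22% of all tested genes. Etv5, an alveolar type 2 gene, lay above the controls in every NR4A1 library (40.2 CPM in each against 30.6 to 34.9 CPM), against 6.69% of all tested genes. Of the epithelial genes, 2 of 6 tested (Cdh1 and Krt19) had an unadjusted p under 0.05 in edgeR with lower levels. Of the alveolar type 2 genes 1 of 6 was lower (Nkx2-1) and 1 higher (Etv5). The shares of all tested genes were 2.44% lower and 4.02% higher. None passed the threshold used below. The counts of p53 genes are given with and without NR4A1 replicate 2. The part that these markers or their source have in the p53 results was not tested.

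The p53 response element is shown first, because it is the DNA motif through which the listed genes are known to be controlled. RefSeq promoter windows, from 250 bases before to 50 bases after a gene's start on GRCm38.p6, were at hand for 26 of the 32 genes. A match to the p53 consensus was taken as the outer C and G of both core motifs in place and at least 17 of 20 letters fitting, a limit chosen after the matches were seen. Since the consensus reads alike on both strands, 1 search covered both. Windows of 5 of the 26 genes held such a match, against 441 of 27025 genes with a window (1.63%). The matches are printed in the direction of transcription with the 20 matched bases in capitals. For Aen the bases around the match are left out, because they lie in an annotated first exon.

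Cdkn1a: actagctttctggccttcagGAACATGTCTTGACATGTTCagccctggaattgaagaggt
Ccng1: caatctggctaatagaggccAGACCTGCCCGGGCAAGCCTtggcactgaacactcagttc
Aen: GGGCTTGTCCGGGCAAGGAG
Trp53: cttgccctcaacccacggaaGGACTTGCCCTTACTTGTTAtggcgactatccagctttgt
Sesn1: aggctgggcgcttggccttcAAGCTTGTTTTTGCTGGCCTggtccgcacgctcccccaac

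In Cdkn1a the match was at chr17:29090928-29090947 on the plus strand, 51 to 32 bases before the start, and fitted 19 of 20 letters. It holds the paired core CATGNNNNNNCATG, which was in the window of no other listed gene and in 0.833% of all genes with a window. In Ccng1 the match was at chr11:40755462-40755481 on the minus strand, 195 to 176 bases before the start, and also fitted 19 of 20 letters. The matches of Aen (chr7:78895937-78895956, plus strand), Trp53 (chr11:69580284-69580303, plus strand) and Sesn1 (chr10:41887266-41887285, plus strand) fitted 17 letters each. That of Sesn1 lies before a RefSeq start inside the gene, which spans chr10:41810574-41908424. Cdkn1a, Ccng1 and Aen belong to the genes whose groups did not overlap, described next. In all, 3 of 10 such genes with a window and 2 of 16 other genes with a window held a match. The full consensus with up to 13 letters between its parts was found only in the window of Cdkn1a, against 0.074% of all genes. It is not the capitalized stretch, which fits 19 of 20 letters. The pair joins the first part of that stretch to another part farther upstream. The NR4A1 monomer element (NBRE, AAAGGTCA, searched on both strands) was in none of the 26 windows, against 1.70% of all genes with a window. A match is a stretch of letters and not a measured binding site, and p53 sites outside these windows, in introns or farther upstream, were not searched.

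Of the 31 p53 genes tested, 12 had higher levels in each of the 3 NR4A1 overexpression libraries than in each of the 3 vector controls, namely Mdm2, Ccng1, Cdkn1a, Plk2, Fas, Eda2r, Aen, Apaf1, Zmat3, Trp53inp1, Ercc5 and Ephx1. Among all tested genes 6.69% were placed that way. No p53 gene was lower in every NR4A1 library, against 6.22% of all tested genes. The same 12 genes had an unadjusted p under 0.05 in edgeR's quasi-likelihood test with higher levels, against 4.02% of all tested genes, and none had such a p with lower levels, against 2.44%. The estimated log2 fold change was above 0 for 26 of 31 p53 genes, against 51.9% of all tested genes. Its median over the p53 genes was 0.19, against 0.0078 over all 12941 genes tested. After Benjamini-Hochberg adjustment over all tested genes, no p53 gene passed an adjusted p under 0.05 in edgeR at any fold, so none is called changed. The threshold with a fold change of at least 2 was passed by 0.17% of all tested genes.

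That absence of calls depends on the test. With DESeq2, 6 p53 genes (Aen, Ccng1, Cdkn1a, Eda2r, Fas and Trp53inp1) had an adjusted p under 0.05, against 1.13% of all tested genes, and 3 of them (Aen, Cdkn1a and Eda2r) also had a fold change of at least 2, against 0.564%. In bulk RNA, more RNA of a gene per cell and more cells of a kind that holds much of it cannot be told apart.

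**Figure D1:**
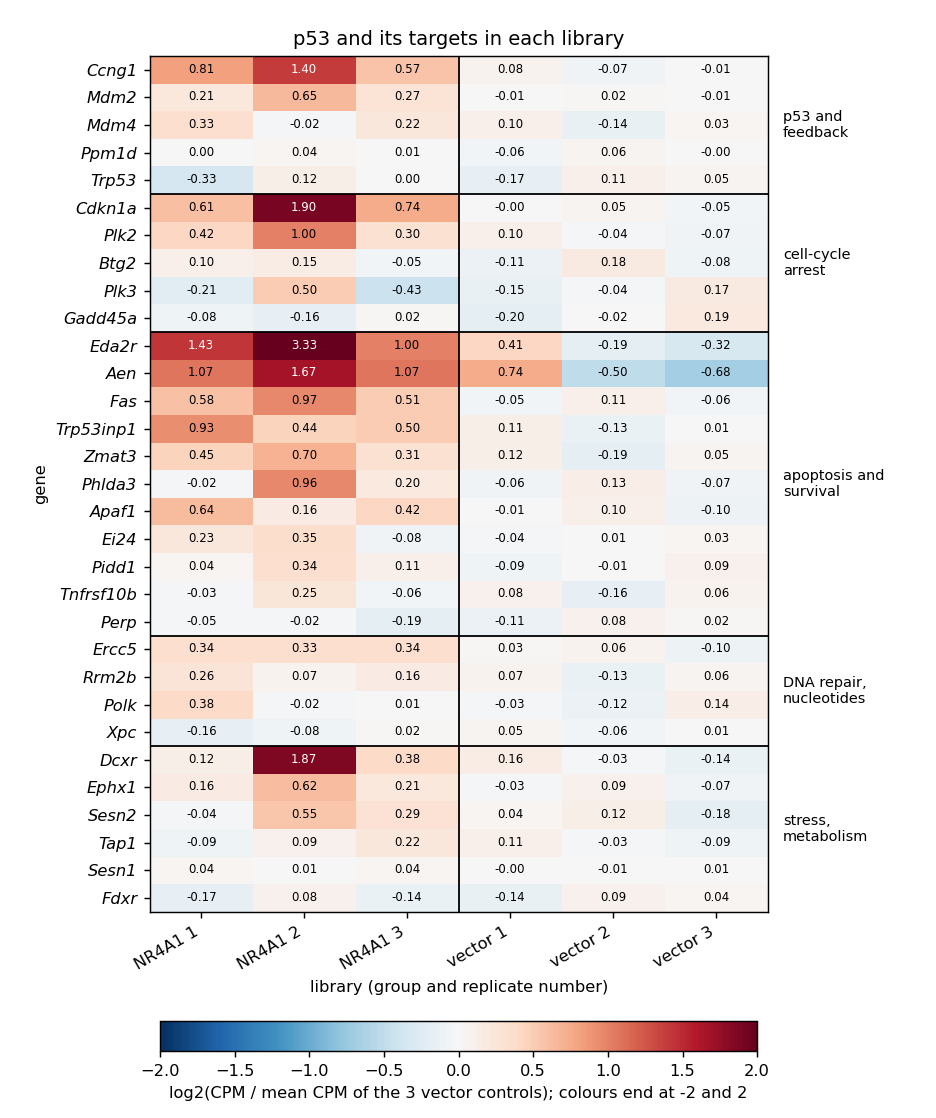
Level of each of the 31 tested p53 genes (rows, grouped by role) in each of the 6 libraries (columns), as the log2 ratio of its normalized CPM to the mean of the 3 vector controls, printed in each cell and coloured from blue (lower) to red (higher). The deepest red cells are those of Eda2r (3.33), Cdkn1a (1.90) and Dcxr (1.87) in NR4A1 replicate 2, and Trp53 in the top block differs little between the groups.

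The count was also taken without NR4A1 replicate 2. With the other 5 libraries, 12 p53 genes again had an unadjusted p under 0.05 with higher levels, against 4.78% of 13084 genes tested, and 11 of the 12 were among those named above. Ephx1 left the set and Mdm4 entered it. None had such a p with lower levels, against 3.41%. The groups did not overlap for 15 higher p53 genes, against 13.7% of all tested genes, and for 1 lower gene, Plk3, against 13.8%. The 15 were the 12 above with Mdm4, Rrm2b and Sesn1. Leaving a library out cannot narrow a gap between the groups, apart from small changes in scaling. The return of the 12 in this count was therefore fixed beforehand and is no check on them. The median log2 fold change over the p53 genes was 0.19 with and without this library. In edgeR without it Cdkn1a had an adjusted p of 0.0499 with a fold change below 2, as 0.275% of all genes had an adjusted p under 0.05, and no p53 gene passed the threshold with the 2-fold limit, against 0.214%.

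**Figure D2:**
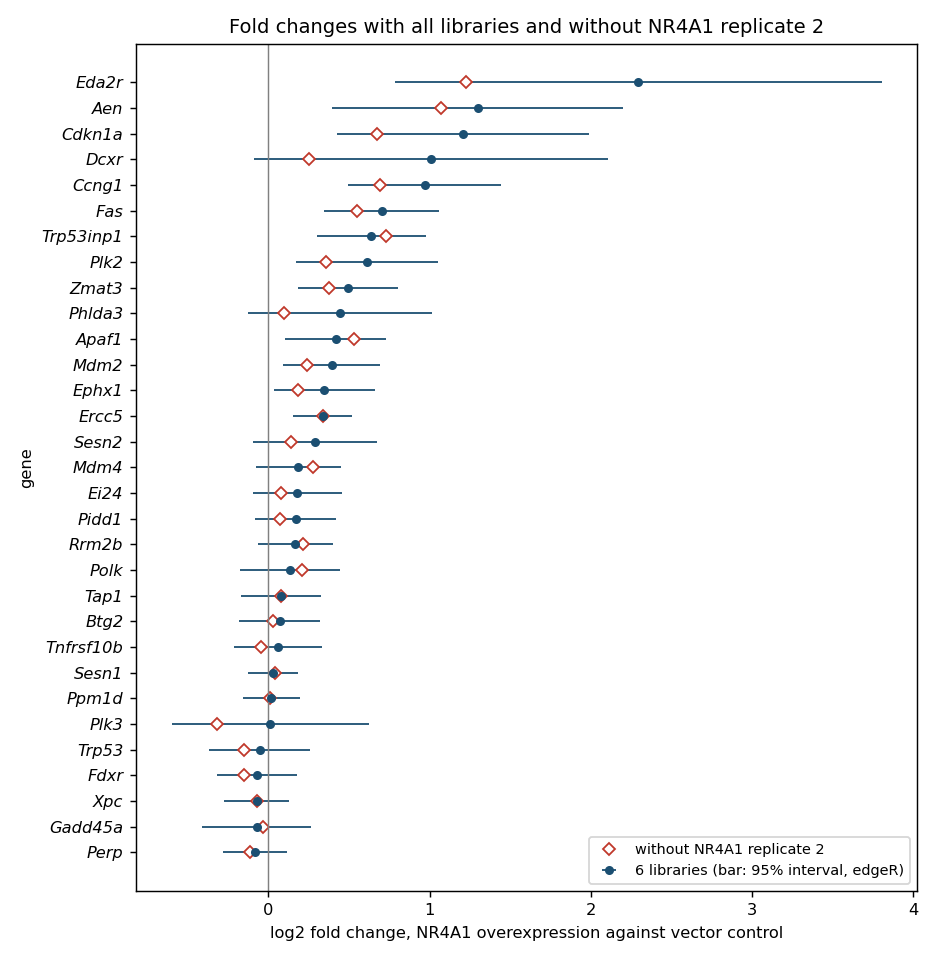
Estimated log2 fold change of each tested p53 gene, NR4A1 overexpression against vector control, with all 6 libraries (filled circles, bars are 95% intervals from edgeR) and without NR4A1 replicate 2 (open diamonds). Leaving the library out moved Eda2r from 2.30 to 1.23, Cdkn1a from 1.21 to 0.68 and Dcxr from 1.01 to 0.25, and moved Trp53inp1 and Apaf1 the other way.

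Trp53, on GRCm38 at chr11:69580359-69591873, plus strand, did not stand apart between the groups. Its normalized CPM was 107, 147 and 135 in NR4A1 replicates 1, 2 and 3 and 119.5, 145 and 139 in vector controls 1, 2 and 3. The ranges overlapped, and the lowest library was NR4A1 replicate 1. The log2 fold change was -0.05 ± 0.13 (SE), with a 95% interval of -0.37 to 0.26 and an adjusted p of 0.973 in edgeR, and it was -0.15 without NR4A1 replicate 2. Of its 50-base stretches, 3.95% occur in other genes too, most of them in the pseudogene Trp53-ps.

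Of the 5 genes of p53 and its feedback, Mdm2 and Ccng1 were higher in every NR4A1 library. Mdm2, the ligase that marks p53 for degradation, is at chr10:117688888-117710758, minus strand. Its CPM was 67.7, 92.4 and 70.9 in NR4A1 replicates 1 to 3 and 58.3, 59.4 and 58.3 in vector controls 1 to 3. The controls lay within 1.1 CPM of each other, and NR4A1 replicate 2 was the highest library. The log2 fold change was 0.39 ± 0.13 (edgeR adjusted p = 0.638), and 0.24 without NR4A1 replicate 2.

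Ccng1 encodes cyclin G1, which recruits a phosphatase to Mdm2, and is at chr11:40748552-40755311, minus strand. Its CPM was 175, 264 and 148 in the NR4A1 libraries and 105, 95.2 and 99.0 in the controls. All 3 NR4A1 libraries were well above the controls, which differed little among themselves. Ccng1 had the lowest adjusted p of the listed genes, 0.220 in edgeR, with a log2 fold change of 0.97 ± 0.20. Without NR4A1 replicate 2 the log2 fold change was 0.69 (edgeR adjusted p = 0.0635).

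The other inhibitors gave smaller differences. Mdm4, a relative of Mdm2 that covers the activation domain of p53, had a log2 fold change of 0.19 ± 0.11 with all libraries and 0.28 without NR4A1 replicate 2. Its level in NR4A1 replicate 2 (134 CPM) was below that of NR4A1 replicates 1 and 3 (172 and 158 CPM). Of its 50-base stretches, 7.31% occur in other genes, nearly all in Mdm4-ps. Ppm1d, the Wip1 phosphatase that acts on p53 and its kinases, had 0.02 ± 0.076, with a 95% interval of -0.16 to 0.20.

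Cdkn1a, which encodes the cyclin-dependent kinase inhibitor p21, was higher in every NR4A1 library, and so was Plk2. Cdkn1a is at chr17:29090979-29100722, plus strand. Its CPM was 43.5, 107 and 47.7 in the NR4A1 libraries and 28.5, 29.6 and 27.5 in the controls. The lowest NR4A1 library was 13.9 CPM above the highest control, and NR4A1 replicate 2 was 2.34 times the mean of NR4A1 replicates 1 and 3, which was itself 1.60 times the mean of the controls. The log2 fold change was 1.21 ± 0.33 (edgeR adjusted p = 0.460). An antisense transcript of uncertain status overlaps 7.68% of the exon bases of Cdkn1a, and the sources used here do not give whether counting used the strand.

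Plk2 encodes a polo-like kinase of the stress response. Its CPM was 24.7, 37.1 and 22.8 in the NR4A1 libraries and 19.9, 17.96 and 17.7 in the controls. NR4A1 replicate 2 was again the highest library, and replicate 3 was 2.97 CPM above the highest control. Its log2 fold change was 0.61 ± 0.19 (edgeR adjusted p = 0.576), and 0.36 without NR4A1 replicate 2. The other genes of arrest overlapped between the groups. Gadd45a, a growth-arrest and DNA-damage gene, had a log2 fold change of -0.07 ± 0.14, and 15.6% of its 50-base stretches are shared with the antisense E230016M11Rik. Btg2, an antiproliferative gene that binds deadenylases, had 0.07 ± 0.11. Plk3, a further polo-like kinase, had 0.01 ± 0.26 with all libraries and -0.32 without NR4A1 replicate 2, in which it reached 11.4 CPM against 5.95 to 9.06 CPM in the other 5.

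Of the 11 genes of apoptosis and survival, 6 were higher in every NR4A1 library. Fas, a death receptor at the cell surface, had 15.8, 20.6 and 15.02 CPM in the NR4A1 libraries and 10.1, 11.3 and 10.1 CPM in the controls. The groups were 3.68 CPM apart at their nearest. Its log2 fold change was 0.70 ± 0.15 (edgeR adjusted p = 0.247), and 0.55 without NR4A1 replicate 2 (edgeR adjusted p = 0.246).

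Eda2r, the receptor for the A2 form of ectodysplasin, is on chromosome X. Its CPM was 4.60, 17.2 and 3.41 in the NR4A1 libraries and 2.26, 1.49 and 1.36 in the controls, from 59 to 288 counts against 24 to 39 counts. It had both the largest estimate and the largest standard error of the listed genes, a log2 fold change of 2.30 ± 0.64 (edgeR adjusted p = 0.471). NR4A1 replicate 2 was 4.29 times the mean of NR4A1 replicates 1 and 3, and without it the log2 fold change was 1.23 (edgeR adjusted p = 0.352).

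Aen, an exonuclease that acts in apoptosis, differed among the controls. Its CPM was 35.2, 53.1 and 35.1 in the NR4A1 libraries and 28.0, 11.8 and 10.4 in vector controls 1, 2 and 3. Vector control 1, the control with the raised fibroblast genes, was the highest of the 3. Its log2 fold change was 1.298 ± 0.38 (edgeR adjusted p = 0.530), 1.07 without NR4A1 replicate 2 and 1.89 without vector control 1.

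Trp53inp1 and Apaf1 were highest in NR4A1 replicate 1 and not in replicate 2. Trp53inp1, a p53-induced nuclear protein that promotes cell death, had 143, 102 and 106 CPM in the NR4A1 libraries and 81.0, 68.6 and 75.4 CPM in the controls. Its log2 fold change was 0.64 ± 0.14 (edgeR adjusted p = 0.292) with all libraries and 0.73 (edgeR adjusted p = 0.160) without NR4A1 replicate 2. Apaf1, the scaffold of the apoptosome, had 61.7, 44.2 and 53.03 CPM in the NR4A1 libraries and 39.4, 42.5 and 37.0 CPM in the controls. NR4A1 replicate 2 was only 1.72 CPM above the highest control. Its log2 fold change was 0.42 ± 0.13 (edgeR adjusted p = 0.603) and 0.53 (edgeR adjusted p = 0.182) without that library.

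Zmat3, an RNA-binding zinc-finger protein also known as Wig1, had 55.7, 66.3 and 50.6 CPM in the NR4A1 libraries and 44.4, 35.8 and 42.4 CPM in the controls. The lowest NR4A1 library was 6.10 CPM above the highest control, with a log2 fold change of 0.49 ± 0.13 (edgeR adjusted p = 0.440). The 5 other genes of this role overlapped between the groups. Phlda3, an inhibitor of AKT, had a log2 fold change of 0.45 ± 0.24 with all libraries and 0.09 without NR4A1 replicate 2. It reached 58.3 CPM in that library, against 28.4 to 34.4 CPM in the other 5. The estimates were 0.18 ± 0.12 for Ei24, 0.17 ± 0.11 for Pidd1, the scaffold of the PIDDosome, 0.06 ± 0.12 for the death receptor Tnfrsf10b, and -0.08 ± 0.084 for Perp, a desmosome protein of epithelia. Without NR4A1 replicate 2 they were 0.08 for Ei24, 0.07 for Pidd1, -0.05 for Tnfrsf10b and -0.12 for Perp.

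**Figure D3:**
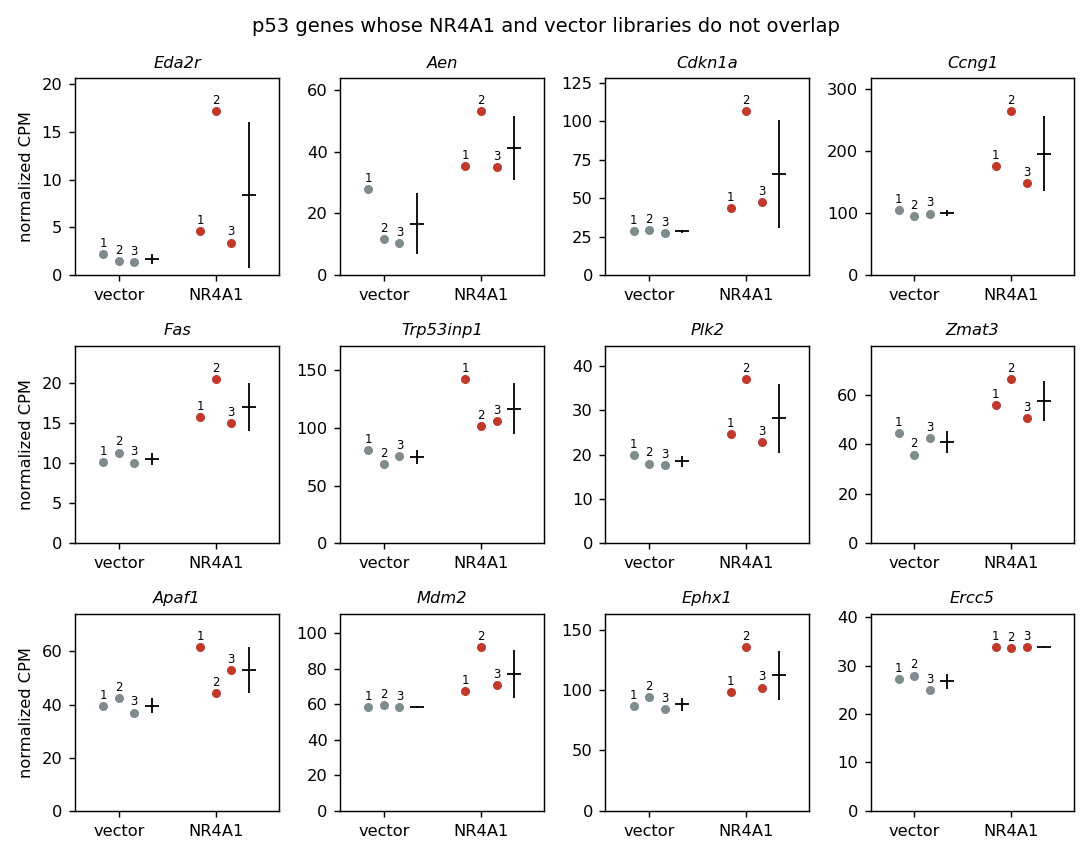
Normalized CPM (vertical axes, each from 0) of the 12 p53 genes whose NR4A1 libraries all lay above the vector controls, with 1 point per library labelled by its replicate number and the mean ± SD of the 3 libraries beside them. Replicate 2 is the highest NR4A1 point in 9 of the 12 panels, while the 3 NR4A1 libraries of Ercc5 lie between 33.6 and 33.8 CPM.

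Of the 4 genes of DNA repair and nucleotide supply, Ercc5 was higher in every NR4A1 library. Ercc5 encodes XPG, an endonuclease of nucleotide excision repair. Its CPM was 33.8, 33.6 and 33.8 in the NR4A1 libraries and 27.2, 27.9 and 25.0 in the controls. It had the smallest spread of the 12 genes in the NR4A1 group (33.7 ± 0.12 CPM, SD, n = 3), and its log2 fold change was 0.34 ± 0.078 (edgeR adjusted p = 0.307) with all libraries and 0.34 without NR4A1 replicate 2. The estimates of the other genes were 0.17 ± 0.099 for Rrm2b, the p53-inducible subunit of ribonucleotide reductase, 0.13 ± 0.13 (0.21 without NR4A1 replicate 2) for Polk, a translesion polymerase, and -0.07 ± 0.085 for Xpc, the damage sensor of nucleotide excision repair.

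Of the 7 genes of stress, metabolism and antigen processing, Ephx1 was higher in every NR4A1 library. This microsomal epoxide hydrolase, which detoxifies reactive epoxides in the lung and liver, had 98.4, 136 and 102 CPM in the NR4A1 libraries and 86.4, 93.9 and 84.2 CPM in the controls. NR4A1 replicate 2 was the highest, and the log2 fold change was 0.35 ± 0.13 (edgeR adjusted p = 0.724) with it and 0.19 (edgeR adjusted p = 0.614) without it. Dcxr, a carbonyl reductase of xylulose, had 10.2 CPM in NR4A1 replicate 2 and 2.55 to 3.64 CPM in the other 5 libraries, so its log2 fold change of 1.01 ± 0.47 rested on 1 library. The sestrins, which restrain mTORC1, gave 0.29 ± 0.16 for Sesn2, which was 0.14 without NR4A1 replicate 2, and 0.03 ± 0.066 for Sesn1. Sesn1, with a p53 match before a RefSeq start inside the gene, lay between 94.2 and 97.6 CPM in all 6 libraries. Fdxr, the reductase of mitochondrial electron transfer to cytochrome P450, had -0.07 ± 0.11, and -0.15 without NR4A1 replicate 2. Tap1, a peptide transporter of antigen presentation, had 0.08 ± 0.10, and 3.87% of its exon bases overlap Psmb9 on the other strand. Gdf15, a secreted stress cytokine, had 0, 74 and 2 counts in the NR4A1 libraries and 9, 9 and 4 counts in the controls, and it was left out of the test by the filter on low counts. Without that filter its log2 fold change was 1.80 ± 1.45 (edgeR adjusted p = 0.808).

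By role, the median log2 fold change was 0.19 for p53 and its feedback, 0.07 for arrest, 0.45 for apoptosis and survival, 0.15 for DNA repair and 0.18 for the 6 tested genes of stress and metabolism. Genes higher in every NR4A1 library were 2 of 5, 2 of 5, 6 of 11, 1 of 4 and 1 of 6 in the same order, against 6.69% of all tested genes. Differences between roles were not tested.

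NR4A1 replicate 2 was the highest of the 6 libraries for 17 of 31 p53 genes (22.7% of all tested genes), NR4A1 replicate 1 for 6 (24.8%) and NR4A1 replicate 3 for 2 (9.24%). Within the 12 genes NR4A1 replicate 2 was the highest for 9. By the choice of these genes only an NR4A1 library could be highest, so the 22.7% is not a like share for this count. The mean of NR4A1 replicates 1 and 3 over the mean of the controls was above 1 for each of the 12 by their choice, and its size is a description. This ratio was 2.35 for Eda2r, 2.10 for Aen, 1.66 for Trp53inp1, 1.62 for Ccng1, 1.60 for Cdkn1a, 1.46 for Fas, 1.45 for Apaf1, 1.30 for Zmat3, 1.28 for Plk2, 1.27 for Ercc5, 1.18 for Mdm2 and 1.14 for Ephx1. It was 1.19 for Dcxr, 1.07 for Phlda3 and 0.803 for Plk3, whose groups overlapped and which reached 3.07, 1.83 and 1.76 times the mean of NR4A1 replicates 1 and 3 in NR4A1 replicate 2.

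**Figure D4:**
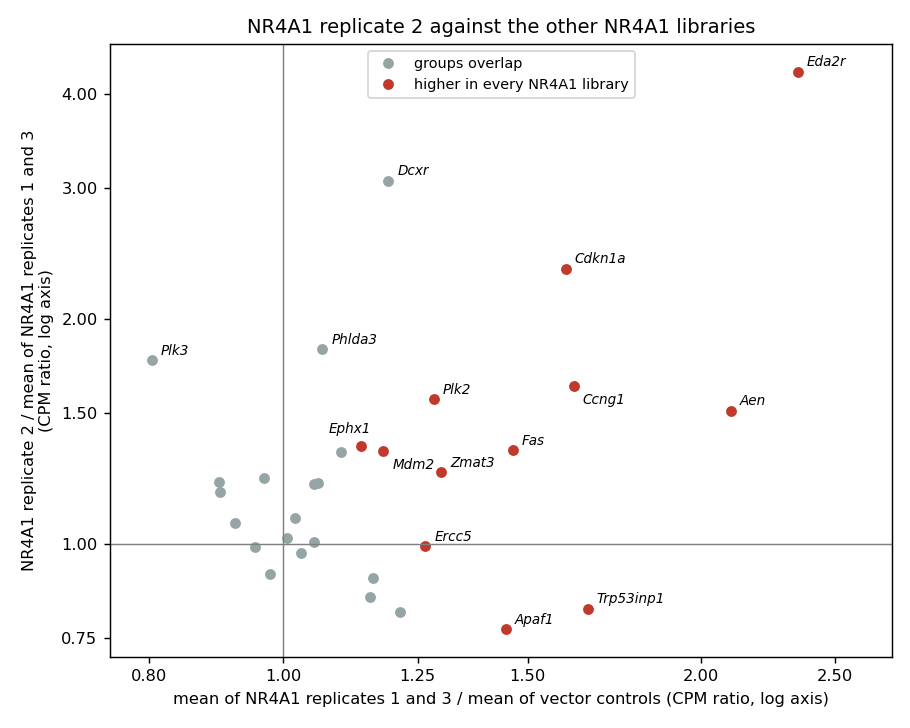
For each of the 31 tested p53 genes, the mean CPM of NR4A1 replicates 1 and 3 over the mean of the vector controls (horizontal, log axis) against the CPM of NR4A1 replicate 2 over the mean of NR4A1 replicates 1 and 3 (vertical, log axis). Genes higher in every NR4A1 library are red, and Eda2r, Cdkn1a and Dcxr lie highest, with ratios of 4.29, 2.34 and 3.07 on the vertical axis.

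Per length of transcript, the p53 genes spanned a wide range of levels in the vector controls. FPKM was 72.3 ± 5.22 (SD, n = 3) for Perp, 37.5 ± 2.32 for Ephx1, 28.6 ± 0.198 for Sesn1, 23.3 ± 1.10 for Ccng1, 21.6 ± 0.950 for Ppm1d and 19.0 ± 1.95 for Trp53. Ccng1 and Ppm1d, and likewise Ppm1d and Trp53, differed by less than the sum of their SDs. Cdkn1a, at 9.34 ± 0.371 FPKM, stood at rank 13 of the 32 genes, and in the NR4A1 group it was at 21.3 ± 11.4 FPKM. Mdm2 was at 6.04 ± 0.0893 FPKM, above the level of 50.7% of all tested genes. The lowest were Dcxr (1.38 ± 0.142), Eda2r (0.245 ± 0.0691) and Gdf15 (0.147 ± 0.0603).

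A further 23 p53 targets outside the list were read beside it. Of these 22 were tested and none passed the threshold. At an unadjusted p under 0.05, 4 were higher (Tigar, Dram1, Zfp365 and Thbs1), against 4.02% of all tested genes, and 2 were lower (Ddit4 and Trp53i11), against 2.44%. The median log2 fold change was 0.22, against 0.0078 over all tested genes. Without NR4A1 replicate 2, 3 were higher, since Thbs1 left the set, against 4.78% of all tested genes. Of the 2 lower genes Ddit4 stayed and Trp53i11 left the set (edgeR unadjusted p = 0.060), against 3.41%. Tigar, a fructose bisphosphatase, had a log2 fold change of 0.42 ± 0.10, and Dram1, a lysosomal protein of autophagy, had 0.37 ± 0.084. Both were higher in every NR4A1 library, with 38.4 to 40.8 CPM against 26.9 to 33.6 CPM for Tigar and 26.1 to 27.9 CPM against 19.7 to 22.0 CPM for Dram1. Zfp365 had 0.38 ± 0.13. Thbs1, a matrix glycoprotein that fibroblasts and smooth muscle express, had 1.97 ± 0.82, with 340.4 CPM in NR4A1 replicate 2 and 31.8 to 41.4 CPM in the other 5. Ddit4, an inhibitor of mTORC1, had -0.23 ± 0.086, and Trp53i11 had -0.77 ± 0.29. The groups of Trp53i11 overlapped, with 21.2 to 24.5 CPM in the NR4A1 libraries and 46.6, 48.0 and 20.9 CPM in vector controls 1, 2 and 3. For Bax, the pore-forming effector of apoptosis, the estimate was 0.24 ± 0.18, and for Bbc3, which encodes PUMA, it was 0.03 ± 0.17.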

How the data were processed

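RNA from 3 NR4A1 overexpression and 3 vector control samples of MLE-12 cells was sequenced from strand-specific libraries. The submitters' processing notes name HISAT2 2.0.4 and GRCm38.p4. The counting program, its annotation, its use of strand and its filters are not given in the sources used here. For each gene, the authors deposited the raw count in every library and the matching FPKM. Over 12184 genes the deposited FPKM equalled the count scaled by the library total and a fixed gene length (largest deviation 5.20e-06%).

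The counts were filtered with filterByExpr, scaled with TMM factors and tested with edgeR 4.0.16 in R 4.3.3 by the quasi-likelihood test, unpaired, with Benjamini-Hochberg adjustment over 12941 genes. Calls needed at least a 2-fold difference and an adjusted p below 0.05. The standard error is the log2 fold change over the square root of F. The method was tested on simulated counts. CPM is normalized by TMM, and limits from 3 counts cover counting error only. FPKM was tested with limma 3.58.1 on log2(FPKM + 1) of genes with an FPKM of at least 1.

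Alternatives changed the test (DESeq2 1.42.0, limma-voom, limma on FPKM, the replicate block), the scaling (library totals, median-ratio size factors), the filter (none, or 10 counts on average), the threshold (no fold limit, or p before adjustment) or the libraries (each left out in turn). The count at an adjusted p at any fold was added after the data had been seen.

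The genes and lists were chosen with earlier results of these data known. Each sample's value is given for Trp53, Cdkn1a, Mdm2 and each listed gene whose groups do not overlap or whose unadjusted p is under 0.05. In the other lists, genes with an unadjusted p under 0.05 are named, at most 8 a list. Bax, Bbc3, Pmaip1, Trp63, Trp73, Cdkn2a and the markers named were picked after their values were seen. Coordinates are the table's own, and 23 of 32 listed genes have the same ones in GENCODE M21. Promoter sequences and starts are from RefSeq, and 50-base stretches were compared with the transcripts of GENCODE M21 with Python 3.11.15. Some single-gene results are left out of this text.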

Additional observations from a re-analysis of the deposited data

How the results depend on the processing

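Of the 31 tested p53 genes, 24 kept the direction of their fold change under every alternative, and 19 of 465 values reversed. Past the threshold were 0 p53 genes in the fit as reported, 3 with an unadjusted p and the 2-fold limit, 3 with DESeq2, and 0 under each other alternative. At an adjusted p at any fold there were 6 with DESeq2 and 0 to 1 with a library left out (Cdkn1a without NR4A1 replicate 2). All tested genes past the threshold numbered 22 as reported, 161 with an unadjusted p, 73 with DESeq2, 8 with a mean of at least 10 counts, 7 with limma on log2(FPKM + 1) 28 without NR4A1 replicate 2 and 3 to 6 without any other library. The number of p53 genes at an unadjusted p under 0.05 was 9 to 15 with a library left out and 10 to 13 otherwise. Of all tested genes, 4.02% were higher and 2.44% lower at that p in edgeR with all libraries. Without NR4A1 replicate 2 these shares were 4.78% and 3.41%. They were not taken for the other alternatives, so those counts cannot be set against all genes. The cause of the differences between alternatives was not tested, beyond the smaller number of samples where a library is left out.

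Reversed log2 fold changes of Ppm1d were -0.0015 with library totals, -0.0023 with limma on log2(FPKM + 1) and -0.0023 on log2(FPKM + 0.1). For Plk3 they were -0.039 with limma-voom, -0.0086 with library totals, -0.036 with the replicate block, and -0.031 and -0.057 with limma on FPKM at the pseudocounts 1 and 0.1. With a library left out, the log2 fold change ranged from -0.010 to 0.048 for Ppm1d, -0.0047 to 0.21 for Polk, -0.0070 to 0.16 for Tap1, -0.15 to 0.065 for Trp53, -0.17 to 0.032 for Gadd45a, -0.32 to 0.18 for Plk3 and -0.047 to 0.11 for Tnfrsf10b.

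With the replicate block, 0 p53 genes and 5 of all genes passed the threshold, and 13 p53 genes had an unadjusted p under 0.05, all 12 of the unblocked fit among them. Both fits use the same libraries, and the share of all tested genes at that p was not taken with the block. Deviations of same-numbered libraries correlated at 0.020, 0.046 and 0.18 across genes, and 1 of 3 NR4A1 libraries correlated best with its own number. The block lowered the standard error of some p53 genes, as for Trp53 (0.133 to 0.061), and raised that of others, as for Zmat3 (0.133 to 0.141). These values cannot decide whether same-numbered samples were prepared together, and the labels do not say. Gdf15 was tested only without the count filter or with a mean of at least 10 counts, where 32 p53 genes were tested, its adjusted p in edgeR was 0.808 and 0.884, and the median log2 fold change of the p53 genes was 0.24.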

Other observations

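Of the p53 family and its regulators, 18 of 19 were matched by symbol. At an unadjusted p under 0.05 in edgeR, 1 of 16 tested was higher, near the 4.02% of all tested genes, and 0 were lower. The higher gene was Rpl11 (log2 fold change 0.42 ± 0.16), a ribosomal protein that binds Mdm2. Its level was 8.78 to 9.71 CPM in the NR4A1 libraries and 5.89 to 7.82 CPM in the controls. Rpl5, also a ribosomal protein gene, had 120 to 145 CPM in the controls, and the reason for the low level of Rpl11 was not tested. Without NR4A1 replicate 2 Rpl11 left the set and Atr entered it, so that 1 was higher, against 4.78% of all tested genes. None passed the threshold. Of the other p53 family members, Trp73 had no count in any library and Trp63 had 5 to 12 counts. Cdkn2a, which encodes the Mdm2 inhibitor Arf and the kinase inhibitor p16, was abundant, with 304 to 461 CPM in the 6 libraries, and its groups overlapped.

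The integrated stress response genes share ATF4 control with Sesn2 and Gdf15. At an unadjusted p under 0.05 in edgeR, 0 of 13 tested were higher, against 4.02% of all tested genes. In the same test 1 of 13 was lower, against 2.44%. The lower gene was Asns, asparagine synthetase (log2 fold change -0.23 ± 0.077). The median over the list was -0.09.

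Pmaip1, a further p53 target, which encodes the apoptosis activator NOXA, was at 9.71 CPM in NR4A1 replicate 2 and at 0.477 to 1.19 CPM in the other 5 libraries.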
